A study of Ictidomys tridecemlineatus with 15 samples.

Results

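Of the 4705 single-gene units with nascent transcription counts in ground squirrel liver, 250 stepped to a different level as the animals entered torpor and then stayed near that level on average through torpor. Of these, 145 were higher and 105 were lower in Ent than in the warm animals. The members were selected on the measured values. Counts were scaled to the library total (CPM, in which every library has the same total) and placed on a log2(CPM + 1) scale. A unit was kept where every Ent value lay above, or every Ent value below, all 6 warm (SA and IBA) values, where the Ent and warm means differed by 0.5 or more, and where the mean of the 5 torpid (ET and LT) libraries lay within 0.3 of the Ent mean. A unit is the body of a gene as redrawn by the authors on the HiC_Itri_2 genome, without the stretch just after the start site. The Ent against warm and torpid against Ent differences therefore describe the members and were not tested.

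All 14 animals were female 13-lined ground squirrels (Ictidomys tridecemlineatus) from a university breeding colony, kept in the laboratory, with implanted recorders of body temperature as the only treatment described. Every replicate was a separate animal, with 1 library from each liver, so that p-values measure the spread between animals. Their ages were not given in the sources used here. The 3 SA animals were summer active and warm, before the hibernation season. The 3 IBA animals were hibernators in an interbout arousal, warm again between torpor bouts, the 3 Ent animals were cooling into torpor, the 3 ET animals were early in a torpor bout, and the 2 LT animals were late in a bout. LT replicate 2 was not used here. The nuclei came from frozen liver and the run-on reaction took place in the tube, at the same temperature for every state, so that the counts report the polymerases already engaged when the liver was frozen and not their speed in the cold animal.

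Hibernators pass through torpor bouts in which body temperature falls close to that of the surroundings, broken by short arousals. Transcription and translation are strongly depressed in the cold, and animals entering torpor cool gradually. Global run-on sequencing (GRO-seq) lets engaged RNA polymerases extend their transcripts in isolated nuclei with a labelled nucleotide, and the reads therefore fall on introns as well as exons. In a scaled measure such as CPM, a value is a share of the library and says nothing of the total output of the liver.

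The libraries held 3713883 to 8884763 counts. Among the 20 hepatocyte markers listed, 11 had a single-gene unit and none of these was a member. Their summed level was 13187 to 25237 CPM in SA, 11372 to 14917 in IBA, 9117 to 10184 in Ent, 4597 to 8993 in ET and 5772 to 8323 in LT, and the part of this decline in the results was not tested. Few markers of other cells had a unit: 1 of 12 for macrophages (Cd14), 4 of 12 for endothelium (Eng, Kdr, Pecam1 and Stab1), 1 of 12 for stellate cells (Rgs5), 2 of 9 for cholangiocytes and 0 of 12 for lymphocytes and neutrophils. None of these was a member or at 0. Cd14 was at 17.9 to 35.4 CPM in the warm libraries, 19.1 to 31.8 in Ent and 7.47 to 19.6 in ET and LT. The 4 endothelial units summed to 199 to 253 CPM in the warm libraries, 235 to 260 in Ent and 144 to 222 in ET and LT. In bulk tissue, fewer nuclei of a type and less transcription per nucleus cannot be told apart. The seasons of collection were unevenly spread: the first season gave SA replicate 1, Ent replicates 1 and 2 and both LT libraries, the second gave all ET libraries, and the third gave the remaining SA, IBA and Ent libraries.

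In the up members, the median difference from each gene's warm mean was 0.62, 0.76 and 0.80 log2 in the Ent libraries, 0.76, 1.02 and 0.92 in ET and 0.66 and 0.79 in LT. In the down members it was -0.64, -0.73 and -0.86 in Ent, -0.75, -0.85 and -0.77 in ET and -0.70 and -0.69 in LT. Over all 4705 units the same medians lay between -0.02 and 0.12. The step itself had a median of 0.73 log2 in the up members (1.66-fold) and -0.71 in the down members (1.63-fold lower in Ent), against 0.05 over all units, and 31 up and 16 down members differed by 1 or more. These values were used by the selection. Within the Ent group the median SD of a member was 0.19 log2 in both directions and 0.20 over all units.

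**Figure D1:**
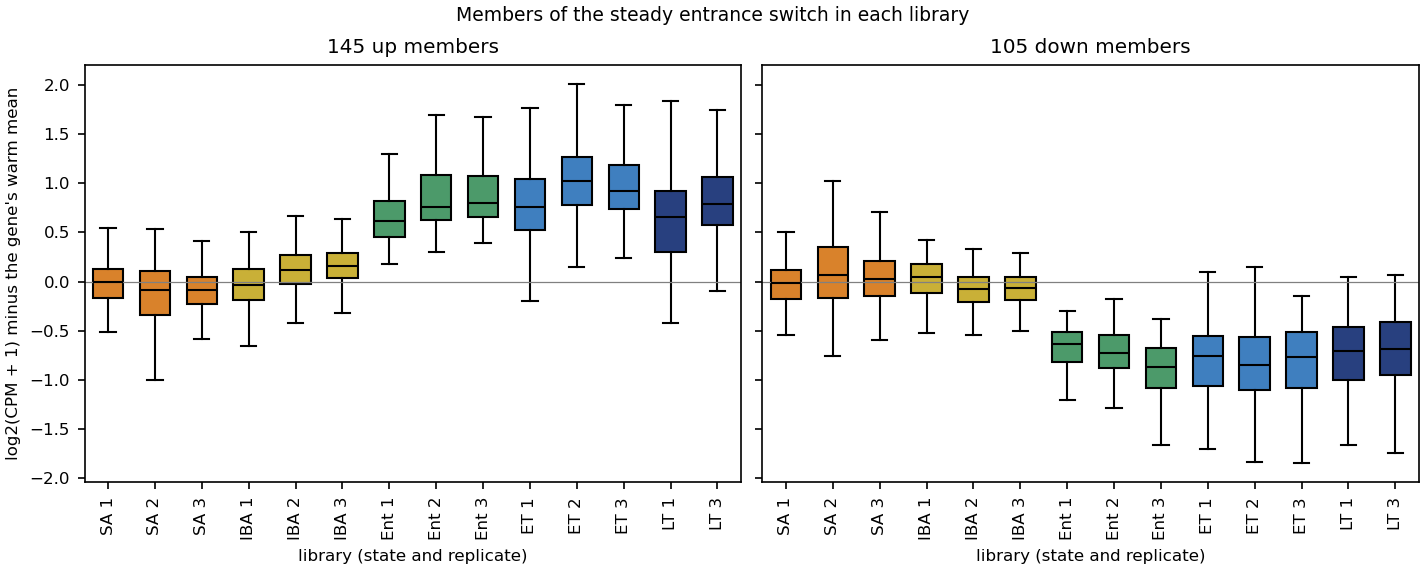
Level of the 145 up members (left) and 105 down members (right) in each library, as log2(CPM + 1) minus the gene's mean over the 6 warm libraries. Boxes give the quartiles over members, the line the median and the whiskers the most distant member within 1.5 box lengths; the boxes of Ent, ET and LT lie apart from the warm ones because members were selected for it, and the LT replicate 1 box of the up members reaches lowest of the torpid libraries.

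The selection began from a larger group. Of the 4705 units, 15.3% had every Ent value above every warm value and 8.35% had every Ent value below, and with the minimum difference 467 units were switched up and 287 down. Among those switched up, 145 (31.0%) were steady, 248 (53.1%) moved at least 0.3 further in the same direction in torpor and 74 (15.8%) came back by at least 0.3. Among those switched down, 105 (36.6%) were steady, 155 (54.0%) went further and 27 (9.41%) came back. Just inside the minimum difference lay Atp5i (0.50) and Rbx1 (0.50) among the up members and Tceanc2 (-0.50) and Actn4 (-0.50) among the down members. Just outside it lay Qki (0.499) and Pnpt1 (0.494), and Ascc1 (-0.4995) and Nars2 (-0.494). At the limit for steadiness, Ndufa9 (0.30) and Atpaf1 (0.30) were just inside on the up side and BTD (-0.303) and Zdhhc13 (0.307) just outside. On the down side Hsp90b1 (0.30) and Sgpl1 (0.30) were just inside, and Nfya (-0.303) and the unnamed unit G36643 (-0.305) just outside.

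**Figure D2:**
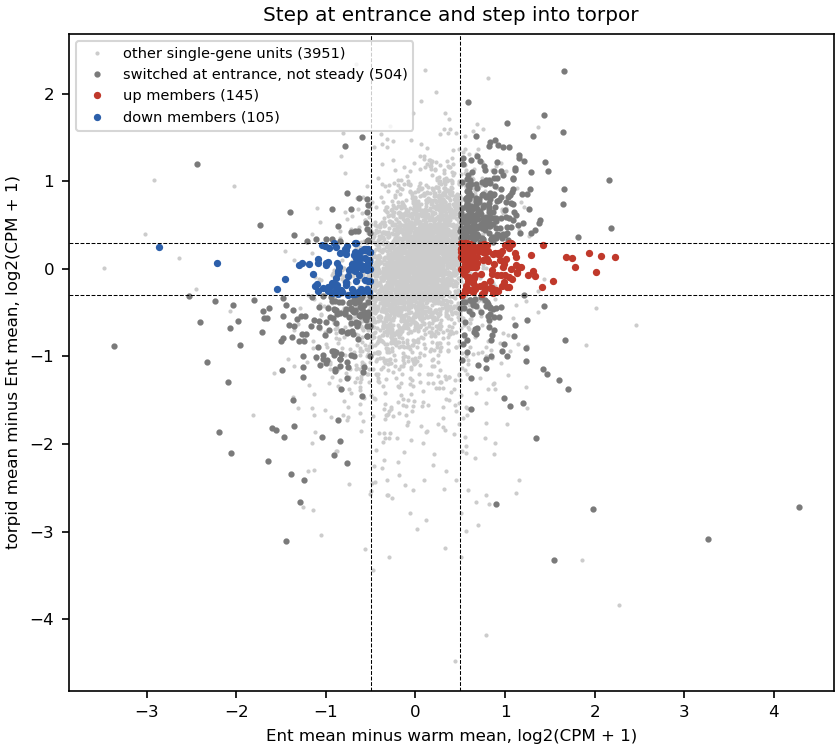
Each point is a single-gene unit, placed by its Ent mean minus warm mean (horizontal) and torpid mean minus Ent mean (vertical), both on the log2(CPM + 1) scale. Dashed lines mark the limits of the rule at ±0.5 and ±0.3. The 145 up members (red) fill the band right of centre and the 105 down members (blue) the band left of centre. Both lie between the units that switched at entrance and were not steady (dark grey).

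To read the step in libraries the selection had not used, the rule was applied without each library in turn and the library left out was then examined. With an Ent library left out, its value lay above all warm values in 190 of 231, 131 of 141 and 118 of 154 of the up units found (82.3%, 92.9% and 76.6%), against 23.2%, 30.1% and 29.8% of all single-gene units. On the down side it lay below all warm values in 119 of 155, 111 of 139 and 85 of 107 units (76.8%, 79.9% and 79.4%), against 17.5%, 16.7% and 22.4%. The median difference of the left-out Ent library from the warm mean was 0.45, 0.73 and 0.67 log2 in the up units and -0.53, -0.60 and -0.69 in the down units. The step at entrance was thus present in each Ent animal when that animal had no part in the selection, at a somewhat smaller size, although the warm libraries it is read against did take part.

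The steadiness was less firm than the step. With a torpid library left out, its value lay within 0.3 of the Ent mean in 41.5% to 62.4% of the up units and 41.9% to 68.7% of the down units, against 36.6% to 42.9% of all single-gene units. With ET replicate 2 left out, the shares were 41.5% and 41.9%, close to its background of 38.3%. With an Ent library left out, the torpid mean lay within 0.3 of it in 93 of 231, 95 of 141 and 83 of 154 up units. Among the down units it did so in 75 of 155, 73 of 139 and 58 of 107. The median torpid minus left-out Ent difference was 0.36, 0.004 and 0.13 in the up units and -0.29, -0.23 and -0.02 in the down units. Over all units it was 0.04, 0.003 and 0.03, and shares within 0.3 were not counted there. Taken apart, the ET mean lay within 0.3 of the Ent mean in 109 of 145 up members and 88 of 105 down members, the LT mean in 102 and 77, and both in 78 and 62, against 1990, 1911 and 1385 of all 4705 units. The rule had selected on the mean of these values. All 5 torpid libraries lay beyond all warm libraries in 90 up members (62.1%, against 24.1% of all single-gene units) and 68 down members (64.8%, against 16.9%), shares that the rule itself raises. In 9 up members, neither LT library was still above the warm range: Nme2, Rps27, Rps6, Phf5a, Dusp11, Gyg2, Abt1, CUNH10orf120 and LOC106145332. On the down side, neither was still below it for Pdia4, Hsp90b1, Dap3, Cfap20, HIVEP2 and Cluap1, and for Parn none of the 3 ET libraries was. For these genes the word steady holds for the mean of the torpid libraries only.

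The choice of scaling moved the membership. With edgeR's TMM sizes the rule found 111 up and 136 down units, with DESeq2 size factors 111 and 139, and with the totals of uniquely mapped reads from the study's methods as library sizes 193 and 76. Over all single-gene units the median Ent minus warm difference was 0.05 with column sums, -0.02 with TMM and 0.13 with the uniquely mapped reads. The median torpid minus warm difference was 0.06, -0.06 and 0.17. Under all of these scalings together, 90 up and 61 down members stayed members. Of the 12 up and 12 down members with a gene symbol and the largest differences, all but Slc43a1 stayed members under each of them.

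The largest step among the up members was that of Atf5, a basic leucine zipper transcription factor of the integrated and mitochondrial stress responses, on the plus strand at chr16:22095897-22114027. It had 127, 107 and 83.5 CPM in SA and 134, 228 and 264 in IBA, 702, 769 and 582 in Ent, 671, 949 and 905 in ET and 602 and 666 in LT. The lowest Ent library was above the highest warm library by more than the whole warm range, and the Ent mean was 4.68-fold the warm mean on the log2(CPM + 1) scale. Lbp, which encodes the secreted lipopolysaccharide-binding protein of the acute-phase response, had 15.04, 54.7 and 65.96 CPM in SA and 23.3, 86.3 and 64.1 in IBA, then 133, 221 and 202 in Ent, 210.2, 141 and 194 in ET and 154 and 197 in LT. On the same log2(CPM + 1) scale its Ent mean was 4.05-fold the warm mean, and its torpid mean differed from the Ent mean by -0.03. Its warm libraries spread widely, with SA replicate 1 and IBA replicate 1 lowest. In the torpid libraries of both genes the level stayed above all warm values.

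Cebpd, a C/EBP transcription factor induced in the acute phase, and Pim1, a serine/threonine kinase downstream of cytokine receptors, followed the same course. Cebpd had 106, 36.9 and 37.5 CPM in SA, 65.9, 66.4 and 70.99 in IBA, 114, 143 and 207 in Ent, 166, 121 and 165 in ET and 159 and 135 in LT. SA replicate 1 stood far above the other warm libraries and close to the lowest Ent library. Pim1 had 20.9, 40.1 and 38.8 CPM in SA, 43.1, 28.2 and 57.01 in IBA, 77.95, 148 and 144 in Ent, 100.1, 114 and 174 in ET and 127 and 148 in LT. Of the 22 units on the list of immediate early and stress-activated genes, Cebpd was the only member, 3 others went further down in torpor, and the list's median Ent minus warm difference was 0.13. Of 25 units for coagulation, complement and other plasma proteins, Lbp was the only member, and the list's median was -0.16. Other genes of the innate response, chosen after their values were seen, were Tlr5, the flagellin receptor (0.76), and Irak3, an inhibitor of Toll-like receptor signalling (0.61).

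**Figure D3:**
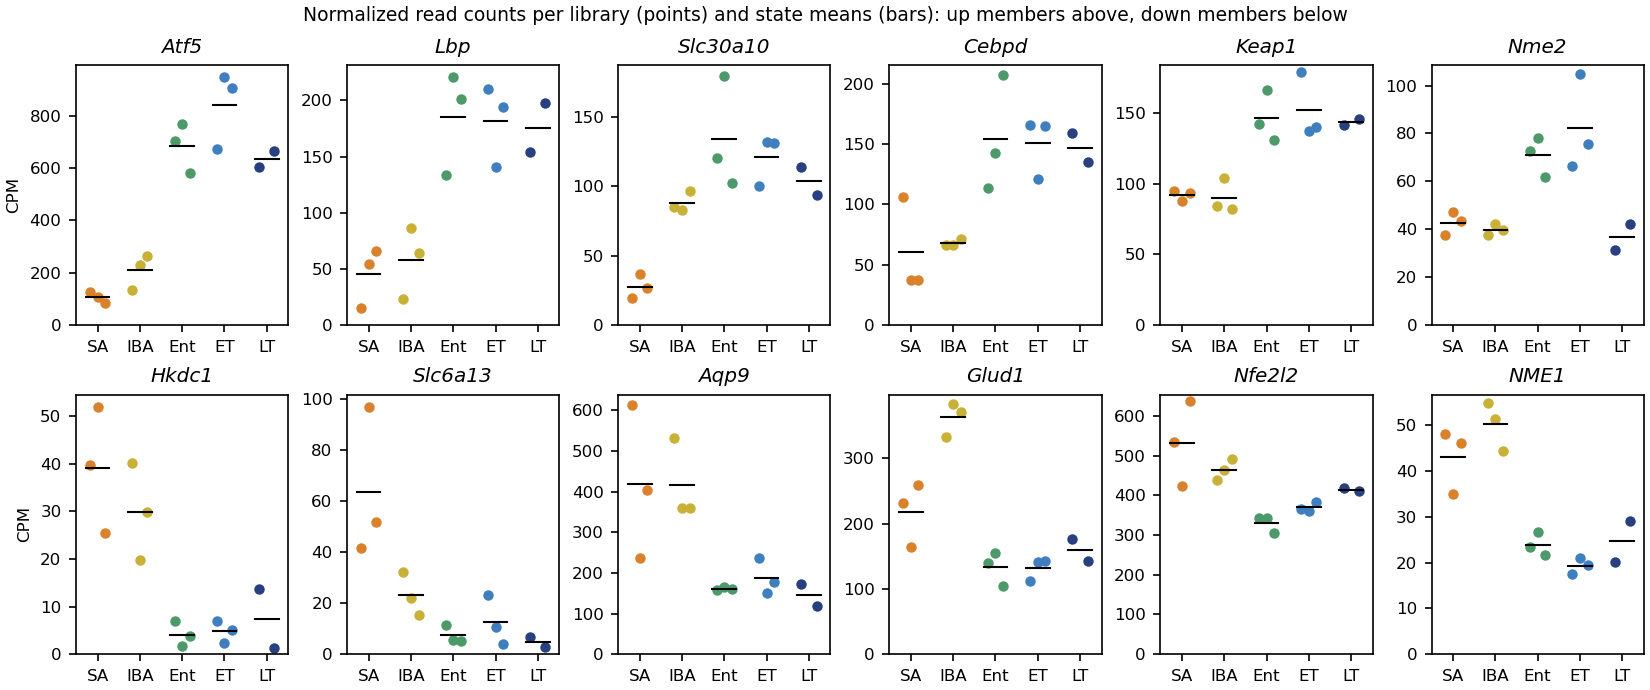
CPM of 6 up members (upper row) and 6 down members (lower row), with 1 point per library and a bar at the mean of each state (n = 3 libraries, 2 for LT). Axes start at 0; Ent points clear the warm points in every panel because members were selected for it, while in Nme2 the LT points (31.1 and 42.2 CPM) lie at or below the level of the warm ones.

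The list for the unfolded protein and integrated stress response had 26 units, of which 2 were up members and 2 down members, with a median Ent minus warm difference of -0.21. Beside Atf5, the up member was Herpud1, an endoplasmic reticulum (ER) membrane protein of ER-associated degradation, at 441 CPM in the warm libraries, 810.1 in Ent, 759.7 in ET and 589 in LT. The down members were both folding factors of the ER lumen. Hsp90b1, which encodes the chaperone GRP94, had 142, 297 and 113 CPM in SA, 208, 133 and 189 in IBA, 112, 109.5 and 99.2 in Ent, 86.6, 189 and 139.96 in ET and 122 and 140.4 in LT. Pdia4, a protein disulfide isomerase, had 106, 269 and 126 CPM in SA, 186, 128 and 158 in IBA, 86.7, 82.9 and 63.8 in Ent, 46.7, 68.5 and 81.8 in ET and 106 and 113 in LT. For Hsp90b1 the highest Ent library was barely below SA replicate 3, and 4 of the 5 torpid libraries were within the warm range. For Pdia4 all ET libraries stayed below the warm range, and both LT libraries were within it. Hsp90b1 was also the only member among 21 units for heat shock factors and chaperones. Down members of the secretory pathway that stood on none of the lists, and were picked after their values were seen, were Creb3l2, an ER-anchored transcription factor (-0.94), Ssr3, a subunit of the translocon-associated complex (-0.78), and Nucb2 (-0.999).

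The 17 units for NRF2 and antioxidant defence held 1 member in each direction, NRF2 itself and the protein that binds it for degradation. Keap1 encodes the adaptor that delivers NRF2 to ubiquitination. It had 94.98, 87.5 and 93.2 CPM in SA, 84.3, 104 and 82.1 in IBA, 142, 166 and 131 in Ent, 179, 137 and 141 in ET and 141 and 146 in LT. Nfe2l2, the gene of NRF2 itself, had 535, 424 and 637 CPM in SA, 438, 464 and 490.4 in IBA, 342, 344 and 305 in Ent, 365, 361 and 384 in ET and 418 and 410.4 in LT. The torpid libraries of both genes lay beyond all warm ones. For Keap1 the torpid mean was 0.02 log2 from the Ent mean, and for Nfe2l2 it was 0.23, part of the way back. Keap1 stayed a member under every scaling, whereas for Nfe2l2 the difference of -0.58 became -0.499 with the uniquely mapped reads, just short of the minimum.

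Of 65 solute carrier units on the list, 5 were up members and 3 were down members, 7.69% and 4.62% against 3.08% and 2.23% of all single-gene units. By name, 100 units were solute carrier genes, and 5 of these were up members and 4 down members (5% and 4%), nearer to the shares over all units. Slc30a10, a manganese exporter, had 19.1, 36.6 and 26.4 CPM in SA, 85.1, 82.9 and 96.6 in IBA, 121, 179 and 103 in Ent, 99.99, 132 and 132 in ET and 114 and 93.8 in LT. Its IBA libraries lay between SA and Ent without overlap, and LT replicate 3 fell within the IBA range. Slc25a5, a mitochondrial ADP/ATP translocase, had 11.5, 11.3 and 12.3 CPM in SA, 7.23, 12.3 and 13.2 in IBA, 35.3, 58.6 and 32.04 in Ent, 61.3, 75.3 and 65.9 in ET and 13.3 and 27.8 in LT. Its torpid mean was 0.02 log2 from the Ent mean, an average of 0.72 in ET and -1.03 in LT. The remaining up members were Slc43a1, a facilitated transporter of large neutral amino acids (1.13), and the mitochondrial carriers Slc25a16 (0.65) and Slc25a46 (0.64).

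Among the down members, Slc6a13, a sodium-dependent GABA and taurine transporter of the hepatocyte membrane, had 41.5, 96.9 and 51.9 CPM in SA, 32.1, 21.8 and 15.2 in IBA, 11.4, 5.67 and 5.19 in Ent, 23.1, 10.8 and 4.12 in ET and 6.75 and 2.67 in LT. SA replicate 2 was by far the highest library, and ET replicate 1 lay within the warm range. The warm mean was 4.66-fold the Ent mean on the log2(CPM + 1) scale. Slc39a11, a zinc transporter, differed by -0.76 and Slc20a2, a sodium-dependent phosphate transporter, by -0.54. Aqp9, the aquaglyceroporin through which hepatocytes take up glycerol, had 614, 236 and 404 CPM in SA, 531, 359.6 and 360.1 in IBA, 158, 165 and 161 in Ent, 236, 151 and 177 in ET and 171 and 118 in LT. The Ent values of Aqp9 were close together, and ET replicate 1 just reached the lowest warm value.

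The deepest of the down steps belonged to Hkdc1, a hexokinase-domain protein of glucose phosphorylation, on the minus strand at chr1:60683248-60730379. It had 39.7, 51.97 and 25.4 CPM in SA, 40.2, 19.7 and 29.8 in IBA, 6.89, 1.73 and 3.71 in Ent, 6.97, 2.28 and 5.15 in ET and 13.7 and 1.25 in LT. No torpid library reached the warm range, and the warm mean was 7.25-fold the Ent mean on the log2(CPM + 1) scale. Hkdc1 stood on no list, and none of the 17 units for gluconeogenesis, glycolysis and glycogen was a member. Glud1, the mitochondrial glutamate dehydrogenase, was the only member among 29 units for amino acid catabolism and the urea cycle. It had 231, 165 and 259.8 CPM in SA, 333, 384 and 372 in IBA, 139, 155 and 105 in Ent, 113, 142 and 144 in ET and 176 and 144 in LT. The IBA libraries were the highest of all, and LT replicate 1 lay above the lowest SA library. Insr, the insulin receptor gene, was the only member of 25 units for insulin, PI3K, mTOR and FoxO signalling, at 649 ± 135 CPM in SA (SD, n = 3), 464 ± 12.3 in IBA, 370.4 ± 101 in Ent, 347 ± 68.2 in ET and 386 ± 14.5 in LT (n = 2). Its difference of -0.60 rested on Ent replicate 3, without which it was -0.35, short of the minimum.

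Other down members with large differences were scattered over function. They were Rab17, a small GTPase of epithelial membrane traffic (-1.55), Fam222a (-1.45), Serpini1, the serine protease inhibitor neuroserpin (-1.27), Sult2b1, a cholesterol sulfotransferase (-1.19), Akr7a2, an aldehyde reductase (-1.14), Narf, a prelamin-binding protein (-1.12), and Ccdc120 (-1.09). For Rab17 the warm libraries ran from 41.6 to 93.7 CPM and the torpid ones from 12.7 to 26.9. P4ha1 encodes the catalytic subunit of collagen prolyl 4-hydroxylase (-1.09), and without Ent replicate 1 its difference was -0.73. Plod2, a lysyl hydroxylase (-0.64), Egln3, a prolyl hydroxylase of hypoxia-inducible factors (-0.87), and Jmjd6 (-0.89) were down members picked after their values were seen. P4ha1 lay -0.57 from its Ent mean in ET and 0.22 in LT.

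Of 27 units for oxidative phosphorylation and the mitochondrial ribosome, 4 were up members (14.8%, against 3.08% of all single-gene units) and none was a down member (2.23% of all), and the list's median Ent minus warm difference was 0.41. These were Mrpl48 (0.66) and Mrps31 (0.57), proteins of the mitochondrial ribosome, Ndufa9, a subunit of complex I (0.57), and Sdhd, a membrane anchor of succinate dehydrogenase (0.56). The share depended on the scaling. With TMM sizes Mrps31 (0.499) and Sdhd (0.49) fell short of the minimum difference, while Ndufa9 (0.51) and Mrpl48 (0.59) stayed above it. A further 5 units of the list continued up in torpor, 1 continued down and 2 came back. Acat1, the mitochondrial acetoacetyl-CoA thiolase, was the only member of 14 units for fatty acid oxidation and ketogenesis, at 69.7 ± 20.96 CPM in the warm libraries (SD, n = 6), 137 ± 26.9 in Ent (n = 3) and 135 ± 39.5 in torpor (n = 5). Mitochondrial genes outside the lists went both ways, and were picked after their values were seen. Tfam, the main packaging factor and transcription activator of mitochondrial DNA, had 14.4, 11.3 and 12.3 CPM in SA, 15.3, 11.9 and 16.3 in IBA, 18.97, 31.8 and 33.5 in Ent, 24.5, 43.6 and 36.7 in ET and 34.1 and 23.8 in LT. Tfb1m, the methyltransferase of mitochondrial ribosomal RNA, had 26.7, 31.8 and 32.5 CPM in SA, 35.9, 30.02 and 28.6 in IBA, 16.6, 14.97 and 18.4 in Ent, 10.2, 15.4 and 18.2 in ET and 19.6 and 24.3 in LT. Tfam was thus above its warm range in all 8 later libraries and Tfb1m below its own. Atpaf1 (1.07), an assembly factor of ATP synthase, Pdp2 (1.12), a phosphatase of pyruvate dehydrogenase, and Echs1 (1.04), an enzyme of fatty acid oxidation, were up, and Dap3 (-0.56), a mitochondrial ribosomal protein, was down.

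Of 42 units for the cytosolic ribosome and translation factors, 2 were up members, none was a down member, 8 continued up and 7 came back, with a list median of 0.49. The members were Rps6 (0.66) and Rps27 (0.66), proteins of the small subunit. By name alone, 31 units were cytosolic ribosomal protein genes, and beside these 2 the up members were Rps29 and Rpl22l1. Rps29 had the largest difference of the 4, with 21.6, 21.3 and 16.9 CPM in SA, 23.6, 29.2 and 29.2 in IBA, 50.8, 58.3 and 52.2 in Ent, 51.8, 78.6 and 55.1 in ET and 59.997 and 35.6 in LT. All of its Ent and torpid libraries were above its warm range. Ribosomal protein genes have many processed copies, as do Actg1 and Slc25a5, and since reads with a unique alignment were kept, reads that a copy shares would be missing from these counts.

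Of 28 units for the actin cytoskeleton and targets of serum response factor (SRF), 2 were up members and 2 down members, with a list median of -0.04. Actg1, which encodes gamma-actin, had 9.43, 26.4 and 34.4 CPM in SA, 14.5, 33.3 and 20.6 in IBA, 73.1, 95.97 and 55.3 in Ent, 136, 112 and 96.4 in ET and 26.9 and 80.5 in LT. All ET libraries lay above all Ent libraries, ET replicate 3 barely so, and LT replicate 1 lay within the warm range. Srf, the gene of the factor itself, was at 22.9 ± 4.83 CPM in the warm libraries (SD, n = 6), 38.5 ± 5.11 in Ent (n = 3) and 32.8 ± 12.4 in torpor (n = 5). The down members cross-link actin filaments. Flna, filamin A, had 27.2, 77.3 and 26.4 CPM in SA, 25.2, 25.9 and 19.8 in IBA, 15.5, 15.9 and 9.79 in Ent, 14.7, 7.06 and 11.3 in ET and 13.2 and 14.9 in LT. SA replicate 2 was far above the other warm libraries of Flna. Actn4, alpha-actinin 4, was at 278 ± 44.03 CPM in the warm libraries (SD, n = 6), 196 ± 37.03 in Ent (n = 3) and 228 ± 69.1 in torpor (n = 5). Pxn, the focal adhesion adaptor paxillin (-0.78), was also a down member and stood on no list.

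The lists for regulators of chromatin, RNA and protein turnover held few members each. Of 51 chromatin units, 2 were up members, Kat8 (0.81), an acetyltransferase of histone H4, and Smarce1 (0.80), a subunit of SWI/SNF remodellers, and 2 were down members, the remodelling ATPase Smarca2 (-0.67) and Baz1a (-0.92), a partner of the ISWI ATPase. Of 38 units for RNA polymerase II, Mediator, elongation and 3′ end processing, the up members were Med7 (1.04), a Mediator subunit, and Fip1l1 (0.51), of the polyadenylation machinery, and there was no down member. Of 43 splicing units on the list, Hnrnpa3 (0.53) was up and Mbnl2 (-0.86) down, while 9 others continued up in torpor. The up members Phf5a and Dhx38, described below as splicing genes, were not on that list. Of 71 units for ubiquitin and the proteasome, the up members were the proteasome subunits Psmb4 (0.80) and Psmd13 (0.60) and the ligase Wwp2 (0.54), and the down member was the cullin Cul4b (-0.64). Otud1, a deubiquitinase that stood on no list, had the largest difference of this kind (1.29), at 16.9 ± 4.23 CPM in the warm libraries (SD, n = 6), 42.4 ± 9.59 in Ent (n = 3) and 47.6 ± 10.6 in torpor (n = 5). Nrde2, a nuclear RNA surveillance factor, differed by 1.15. With TMM sizes Fip1l1 (0.44), Hnrnpa3 (0.46) and Wwp2 (0.475) fell short of the minimum difference.

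Of 42 units for MAP kinases and protein phosphatases, Dusp11 (0.52), an RNA phosphatase, Map4k4 (0.51), a kinase upstream of JNK, and Ppp6c (0.51), a catalytic phosphatase subunit, were up, and Dusp16 (-0.77), a phosphatase of JNK and p38, was down. Of 41 lysosome and autophagy units, Wipi1 (0.93), a phosphoinositide-binding autophagy protein, was the only member. No member came from 13 units for fatty acid synthesis, 5 for cholesterol synthesis and uptake or 14 for cytochrome P450s, conjugation and drug transport. The same was true of 10 units for the circadian clock and 17 hepatocyte transcription factors. Over all single-gene units 3.08% were up members and 2.23% down members, and at those shares lists of this size would hold few or no members. Lists with a single member are to be read against the same shares.

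Some of the remaining members are given singly, picked after their values were seen. No list was fixed for them and the other genes of their pathways were not counted, so that they describe no group. Up members were the Wnt receptors Fzd8 (1.11) and Fzd6 (0.71), the scaffold Axin2 (0.56) and the tankyrase Tnks (0.57). Fzd8 had 87.1, 27.5 and 53.3 CPM in SA, 76.8, 69.7 and 64.2 in IBA, 90.4, 170.03 and 142 in Ent, 99.4, 118 and 169.6 in ET and 194 and 177 in LT. SA replicate 1 of Fzd8 was close to the lowest Ent library. Others were the vesicle traffic genes Hps6 (0.96), Hps1 (0.63), AP3S2 (0.57), Vps18 (0.55) and Stx10 (0.99). The plasma protein genes Azgp1 (1.08) and Spp2 (1.12), the DNA polymerase gene Polm (0.55) and the splicing helicase gene Dhx38 (0.63) were also up.

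Down members picked in the same way were the deadenylase Parn (-0.52), the poly(A) polymerase Papd5 (-0.53) and the RNA-binding Smaug proteins Samd4a (-0.97) and Samd4b (-0.65). Papd5 was at 259.6 ± 24.6 CPM in the warm libraries (SD, n = 6), 179.9 ± 21.7 in Ent (n = 3) and 190.2 ± 11.3 in torpor (n = 5). Enzymes among them were Ugcg, the glucosylceramide synthase (-0.87), Sgpl1, the sphingosine-1-phosphate lyase (-0.91), and Gfpt1, the entry enzyme of hexosamine synthesis (-0.93). Gfpt1 had 72.3, 149.98 and 64.2 CPM in SA, 108, 61.1 and 86.7 in IBA, 57.2, 37.7 and 40.9 in Ent, 34.1, 47.1 and 38.9 in ET and 30.2 and 34.8 in LT. All Ent and torpid libraries of Gfpt1 lay below the warm range, with Ent replicate 1 nearest to it. Other down members were Abcb1, the P-glycoprotein gene (-0.66), Bco1, the carotene-cleaving oxygenase gene (-0.98), Lta4h, of leukotriene synthesis (-0.71), Ncoa4, the receptor for ferritin autophagy (-0.77), Lats2, a kinase of the Hippo pathway (-0.61), and Polr1a, the large subunit of RNA polymerase I (-0.66).

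A few members are relatives or neighbours that moved apart, and they were picked out after their values were seen. NME1 and Nme2 encode nucleoside diphosphate kinases and lie head to tail on the plus strand of chromosome 7, NME1 at chr7:26412692-26431897 and Nme2 at chr7:26435456-26445204, with 3559 nt between the units. NME1 had 48.1, 35.004 and 46.1 CPM in SA, 54.9, 51.4 and 44.4 in IBA, 23.4, 26.6 and 21.7 in Ent, 17.5, 20.96 and 19.4 in ET and 20.3 and 29.02 in LT. Nme2, the downstream gene, had 37.7, 47.1 and 43.3 CPM in SA, 37.5, 42.1 and 39.7 in IBA, 72.6, 78.004 and 61.9 in Ent, 66.5, 105 and 75.5 in ET and 31.1 and 42.2 in LT. NME1 was below its warm range in all 8 Ent and torpid libraries, whereas Nme2 was above its own in Ent and ET, within it in LT replicate 3 and below it in LT replicate 1. The coding parts of these genes are alike, and reads shared between them would be missing from both counts.

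Smim19, which encodes a small membrane protein, and Slc20a2 start back to back on chromosome 17 with 1349 nt between the units, Smim19 on the minus strand at chr17:46201131-46219934 and Slc20a2 on the plus strand at chr17:46221283-46329117. Smim19 had 26.9, 13.5 and 16.4 CPM in SA, 39.9, 46.5 and 40.7 in IBA, 56.8, 64.3 and 65.4 in Ent, 40.5, 75.5 and 63.3 in ET and 61.99 and 68.4 in LT. Slc20a2 had 271, 181 and 243 CPM in SA, 261, 231 and 228 in IBA, 163, 155 and 163 in Ent, 95.99, 143 and 157 in ET and 159.7 and 129.6 in LT. Of this pair, a torpid library reached the warm range in Smim19 only (ET replicate 1). Both pairs were opposed. Nme2, Smim19 and Slc20a2 were the only members whose nearest upstream unit, within 20 kb, was itself a member. The Staufen genes of double-stranded RNA binding also went apart. Stau2 was at 279 ± 48.6 CPM in the warm libraries (SD, n = 6), 467 ± 63.9 in Ent (n = 3) and 535 ± 83.7 in torpor (n = 5). Stau1 was at 314 ± 23.6, 185 ± 17.7 and 152 ± 22.2 CPM.

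Up and down members differed in features that the rule did not use. The median length of a unit was 20226 nt in the up members and 51797 nt in the down members, against 36217 nt over all single-gene units. Of the up members 26 (17.9%) were shorter than 10 kb, against 8.03% of all units, and of the down members 1 (0.952%), Jmjd6. Read the other way, 6.88% of units under 10 kb and 5.04% of those from 10 to 20 kb were up members, against 0.752% of those from 100 to 200 kb. For down members the shares were 0.265%, 0.877% and 3.57%. The trend did not hold at the far end, where 1.85% of units of 200 kb or more were up members (5 of 271) and 1.11% were down members (3 of 271). Units switched up that continued in torpor had nearly the same median length as the up members, 20299 nt, and those that came back were shorter still, at 10719 nt. Units switched down that continued were shorter than the down members, at 31366 nt. No test was made of these lengths, since units are not replicates.

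**Figure D4:**
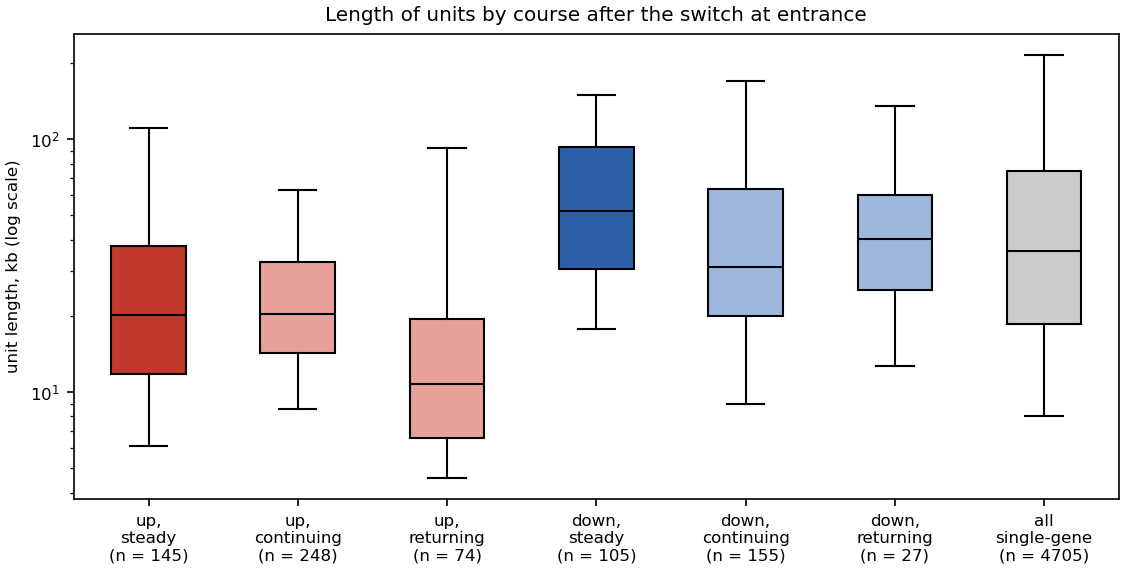
Length of single-gene units on a log scale, for units switched up (red) or down (blue) at entrance, by whether they were steady, continued or returned in torpor, and for all single-gene units (grey). Boxes give the quartiles, lines the median and whiskers the 5th and 95th percentiles; the steady up members (median 20.2 kb) are shorter and the steady down members (median 51.8 kb) longer than all units (36.2 kb).

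Per length, the median level in the warm libraries was 1.94 CPM per kb in the up members and 1.75 in the down members, against 2.03 over all units. Unannotated units with large differences were G6503 (2.07), LOC110597766 (1.94) and ENSSTOG00000031375 (1.53), all up. Most members were well counted: all 145 up members and 104 of 105 down members had 10 or more counts in every library, as did 4680 of all 4705 units, and the exception was Hkdc1. An unannotated name (a bare G, LOC or Ensembl identifier or a "containing" or "like" label) was borne by 20 up members (13.8%) and 3 down members (2.86%), against 10.2% of all units. The nearest upstream unit lay within 20 kb and on the same strand for 9.66% of the up and 9.52% of the down members, against 9.35% of all units. Same-strand units behind a nearer unit of the other strand were not counted. Plus and minus strands held 83 and 62 up members and 58 and 47 down members. Members made up 2.65% to 7.12% of the units of each chromosome except those with the fewest units, with 0 of 41 on chromosome 19, 2 of 6 on chromosome 21 and 0 of 1 on chromosome 25. By name, 98 units were zinc finger genes of the Znf and Zkscan kind, and 6 of these were up members and 2 down members (6.12% and 2.04%), a family picked after its values were seen.

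The rule counted IBA and SA alike as warm and did not use which of them was higher. Since every Ent value had to lie beyond all warm values, it favours units with a small spread among the warm libraries. The median SD of a unit over the warm libraries was 0.249 log2 in the up members, 0.237 in the down members and 0.261 over all units. The shares of members called below are therefore not independent of the selection when set against all units. With that limit, the comparison of IBA with SA asks whether members already differed between the warm states. The IBA animals were winter animals sampled soon after rewarming from a torpor bout. Season and recent torpor therefore cannot be told apart in this comparison. Each comparison was made in edgeR by a quasi-likelihood test on the counts of all units and libraries, with Benjamini-Hochberg adjustment over all 6324 units and a threshold of 0.05. Of the up members, 10 of 145 (6.90%) were called higher in IBA, against 2.70% of all single-gene units (127 of 4705), and none was called lower, against 2.87%. Of the down members, 3 of 105 (2.86%) were called lower in IBA, near that background of 2.87%, and none was called higher. At an unadjusted p of 0.05, 22 up members were higher (15.2%) and 7 lower (4.83%), and 5 down members were higher (4.76%) and 15 lower (14.3%), against 11.5% higher and 11.99% lower over all units. After adjustment, DESeq2 called 16 up members higher and 1 lower, 1 down member higher and 4 lower, and 267 of all units higher and 275 lower. Limma-voom called 11 up members higher and 0 lower, 1 down member higher and 3 lower, and 160 of all units higher and 125 lower. Among the up members the log2 fold change had a median of 0.14, and 94 (64.8%) were higher in IBA. Among the down members it had a median of -0.09, and 37 (35.2%) were higher, while over all units the median was -0.01 and 49.2% were higher.

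The largest of these differences was in Slc30a10, with 27.4 ± 8.80 CPM in the SA animals against 88.2 ± 7.36 CPM in the IBA animals (mean ± SD, n = 3 per state). Its edgeR log2 fold change was 1.67 ± 0.23 (SE, adjusted p = 0.0029). Atl2, an atlastin that shapes ER tubules, changed from 147 ± 32.4 to 320.4 ± 25.4 CPM (log2 fold change 1.11, SE 0.16, adjusted p = 0.0030). Smim19 changed by 1.13 ± 0.26 (SE, adjusted p = 0.022), with its IBA libraries above all of SA. Atf5, at 127, 107 and 83.5 CPM in SA and 134, 228 and 264 in IBA, changed by 0.95 ± 0.23 (SE, adjusted p = 0.030). The other up members called were Wwp2, the helicase Dhx35, Rpl22l1, Mrpl48 and the unnamed units G33251 and G6503, with log2 fold changes from 0.60 to 1.06. The down members called were Samd4a, an RNA-binding translational repressor (log2 fold change -0.83, SE 0.16, adjusted p = 0.0093), Parn, a poly(A)-specific deadenylase (log2 fold change -0.64, SE 0.14, adjusted p = 0.019), and Zfyve1, a phosphoinositide-binding protein of ER and lipid droplets (log2 fold change -0.60, SE 0.15, adjusted p = 0.031). Samd4a had 289, 323 and 249 CPM in SA, 156, 148 and 188 in IBA and 109, 108 and 112 in Ent, so that the IBA libraries lay between the other states. Glud1 was higher in IBA than in SA in every library and just missed the threshold (log2 fold change 0.70, SE 0.19, adjusted p = 0.0503).

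How many members were called depended on single libraries. Without an IBA library it was 5, 4 or 4 of the 13, and Slc30a10, Atl2 and Samd4a were called in each of these fits. Without SA replicate 1, which left SA and IBA libraries of the third season only, it was 14, of which 11 were among the 13, and with season as a covariate 13, of which 11 were. With only the SA and IBA libraries fitted, 3 members were called: 2 of 145 up members were higher, against 68 of 4705 units, and 1 of 105 down members was lower, against 76 of 4705, so that the up members' share no longer stood above that of all units.

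**Figure D5:**
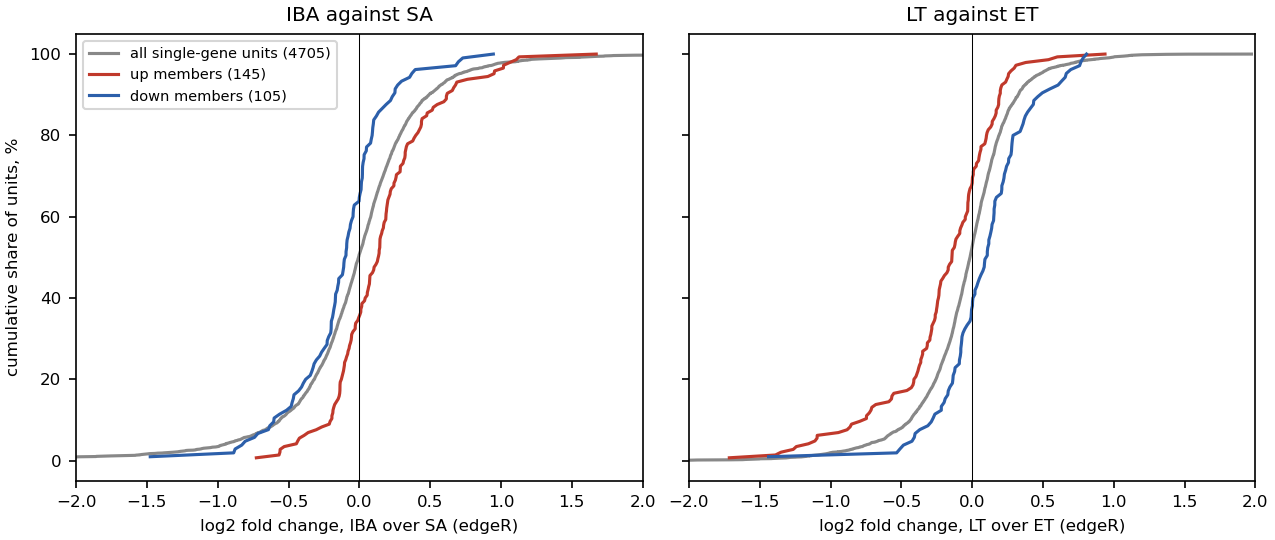
Cumulative share of units by log2 fold change from edgeR, for IBA over SA (left) and LT over ET (right), in the 145 up members (red), 105 down members (blue) and all 4705 single-gene units (grey). In the left panel the red curve lies to the right (median 0.14) and the blue to the left (-0.09) of the grey (-0.01); in the right panel their order is reversed (-0.14 and 0.11, against -0.02).

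LT was compared with ET to ask whether members moved within torpor, where the selection had used only the mean of the 5 libraries. All ET animals came from the second season and both LT animals from the first, so that state and season cannot be told apart here. Of the up members, 4 of 145 (2.76%) were called lower in LT, against 0.340% of all single-gene units (16 of 4705). No up or down member was called higher in LT, as no single-gene unit was (0%), and no down member was called lower. At an unadjusted p of 0.05, 30 up members were lower and 1 higher in LT, and 1 down member was lower and 11 higher, against 6.08% lower and 3.19% higher over all units (150 units higher). DESeq2 called 10 up members lower against 80 of all single-gene units, and 2 down members higher against 18 of all. Limma-voom called 6 up members lower against 17 of all, and 0 down members higher against 1 of all. Neither tool called an up member higher or a down member lower. The log2 fold change had a median of -0.14 among the up members and 0.11 among the down members, in each case toward the warm level, with -0.02 over all units. The medians kept their signs without each library in turn, from -0.20 to -0.12 and from 0.06 to 0.16.

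The 4 up members called were Phf5a, a core subunit of the SF3b splicing complex (log2 fold change -1.26, SE 0.18, adjusted p = 0.021), Rps27 (log2 fold change -1.10, SE 0.17, adjusted p = 0.026), Nme2 (log2 fold change -1.16, SE 0.20, adjusted p = 0.046) and Med7 (log2 fold change -1.35, SE 0.25, adjusted p = 0.048). Phf5a had 22.9, 23.4 and 26.3 CPM in SA, 22.8, 23.6 and 20.9 in IBA, 33.8, 37.3 and 39.8 in Ent, 45.2, 55.4 and 43.7 in ET and 17.2 and 22.7 in LT. Rps27 had 48.5, 47.9 and 37.4 CPM in SA, 47.4, 52.6 and 53.4 in IBA, 68.99, 77.2 and 80.7 in Ent, 85.8, 114 and 87.1 in ET and 40.8 and 48.2 in LT. In both, the ET libraries were the highest of all and the LT libraries lay within or below the warm range. Med7 had 32.3, 39.7 and 43.3 CPM in Ent, 77.4, 79.3 and 50.6 in ET and 23.9 and 30.3 in LT, with its warm libraries at 15.4 to 20.7. Slc25a5 had a larger fold change and missed the threshold (log2 fold change -1.71, SE 0.33, adjusted p = 0.054). These calls rested on single libraries. Without LT replicate 1 no member and none of all single-gene units was called (139 of all lower and 73 higher at an unadjusted p of 0.05), and without ET replicate 2 no member and 1 of all units was. Without LT replicate 3 2 up members were lower, against 16 units lower and 3 higher. With 1 LT library left, its spread is assumed to be that of the other states.

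The same shape was present in 12 up members whose ET mean was at least 0.3 above and whose LT mean was at least 0.3 below the Ent mean, a group defined after the values were seen. They were Slc25a5, Actg1, Med7, Psmb4, Rps27, Sdhd, Atp5i, Phf5a, Cggbp1, Wbp11, LOC106145531 and UBE4A_gene11372. Of the down members 1, Slc6a13, had this shape, and 29 of all 4705 units (0.616%) did, but a unit with opposite offsets meets the limit on the torpid mean nearly by definition. Over all 29 units with this shape, which include the 12 up members, the median length was 10648 nt. The 12 were all short, at most 15643 nt with a median of 8320 nt. Their median distance from the Ent mean was 0.30, 0.67 and 0.40 log2 in the ET libraries, -0.89 in LT replicate 1 and -0.28 in LT replicate 3. Over all up members too, LT replicate 1 lay in the warm range for more genes (29) than LT replicate 3 (14) or any ET library (5 to 21).

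The seasons are given apart as a description, since the rule fixes the direction of every member's Ent minus warm difference. In the first season, with SA replicate 1 against Ent replicates 1 and 2, the median Ent minus warm difference was 0.69 in the up members and -0.65 in the down members. In the third season, with 5 warm libraries against Ent replicate 3, it was 0.80 and -0.85. Over all single-gene units these medians were 0.12 and 0.05. LT and Ent could be compared within the first season, with a median LT minus Ent difference of 0.06 in the up members and -0.01 in the down members. Of the members, 96 of 145 and 71 of 105 lay within 0.3 there, against 1884 of all 4705 units, but these values had entered the selection. No season held both ET and another state.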

How the data were processed

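Nascent RNA from 14 livers was labelled with BrdU in a nuclear run-on, immunoprecipitated and sequenced. The authors trimmed reads (cutadapt), aligned them to HiC_Itri_2 (BWA, unique reads kept), drew transcription units with fstitch on the merged reads of each state, joined overlapping genes and counted reads (featureCounts). Versions, and whether counting used strand, are not given in the sources used here. The deposited values are unnormalized counts for 6324 units. Of these, 1619 merged units were fitted but could not be members.

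Counts were divided by the library total for description (log2(CPM + 1)). IBA against SA and LT against ET were tested in edgeR 4.0.16 (R 4.3.3) by glmQLFTest with TMM sizes on all units and libraries, with DESeq2 1.42.0 and limma-voom 3.58.1 as alternatives. The rule was tried on made values with known members, and the edgeR fit on simulated counts with planted changes. The members, gene lists and tests were chosen with earlier results of these data known. Named genes were the 12 members with a symbol and the largest differences in each direction, up to 4 per list, the 5 largest calls per comparison and those nearest each limit. Other names were added after the values were seen. RefSeq tables (assembly mIctTri1.hap1, another build) were used for names only and matched 213 of 250 members. A few genes are not reported here.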

Additional observations from a re-analysis of the deposited data

How the results depend on the processing

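The number of members followed the limits of the rule. A minimum difference of 0.75 left 68 up and 49 down members, and a torpid limit of 0.2 left 96 and 63. Without each library in turn there were 139 to 231 up members, with 231 without Ent replicate 1, and 99 to 155 down members. The other settings, among them 0.25 or 2 CPM added (146 and 104, 142 and 106), ET alone (137 and 107), LT alone (138 and 95) and the scalings given above, stayed within 1.5 times. In place of the 13 members called between IBA and SA, 3 were called with the compared groups only, 22 by DESeq2, 0 at an adjusted p of 0.001 and 4 to 15 without each library in turn. In place of the 4 called between LT and ET, 2 were called with upper quartile sizes, 2 with column sums, 0 with the compared groups only, 12 by DESeq2, 0 at an adjusted p of 0.001 and 0 to 4 without each library in turn. For 62 named members, 868 alternative Ent minus warm differences were set against the SD of the Ent libraries. Of these, 834 moved by less than that SD and 34 by more, with directions that the selection fixes. Leaving out an Ent library cannot shift a mean of 3 by that much, so those settings say nothing of stability. P4ha1 without Ent replicate 1 (-0.73) and Insr without Ent replicate 3 (-0.35) moved by over 1.5 times. With neighbours counted within 5 kb in place of 20 kb, 5 up and 3 down members had their nearest upstream unit on the same strand. A season term could not be fitted for LT against ET, and the promoter motif shares were not run.

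Libraries with the same replicate number did not deviate together: their deviations from the state means correlated at -0.27 to 0.26 (median 0.04) in 26 pairs and at -0.31 to 0.38 (median -0.01) in 52 pairs of other numbers, so the numbers were not taken as pairing. With the replicate number as a block, 10 members were called between IBA and SA and 0 between LT and ET.

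With 2 or 3 animals per state, the Ent step rests on 3 animals, and members with low levels, such as Hkdc1 with 8 counts in its lowest library, are imprecise. The shallowest libraries, SA replicate 2 and IBA replicate 1, had 3713883 and 3734769 counts.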

Other observations

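Merged units, in which overlapping genes could not be counted apart, were left out of the members. Of 1619 such units, 46 (2.84%) met the same limits upward and 22 (1.36%) downward, against the 3.08% and 2.23% of single-gene units.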
